A study of Apis mellifera with 36 samples.

Results

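In 26 genes full-sister honey bee workers (Apis mellifera) were parted by a wide gap into a higher and a lower group, here called levels. They are 26 of the 15314 gene IDs in the count tables: 18 genes were divided in colony 5, 11 in colony 6 and 3 of these in both. Each was chosen from its read counts in brain tissue as counts scaled to a library of 1000000 counts (CPM). Within a colony the 18 values of log2(CPM + 0.25) were sorted, and a gene was kept where the largest gap between neighbouring bees was at least 1.5 log2 units, 3 to 15 bees lay above it with a standard deviation of at most 0.6 log2 units, the colony mean was at least 1 CPM, and the bees above the gap included all 3 behavioural types. Bees above the gap are called upper bees and those below it lower bees. Genes in which every bee of one colony exceeded every bee of the other were left out, as were GB49544 and GB55204 to GB55213. The gap, the number of upper bees and the difference between levels chose the genes, and they are given as description with no test.

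The study sequenced 36 single bees aged 7 days: 12 unresponsive bees, 12 guards and 12 nurses, with 6 of each type from colony 5 and 6 from colony 6. Unresponsive bees showed no overt social response in the assays, guards attacked an introduced unrelated bee in both of its assays, and nurses tended a queen larva in both of its assays. The bees had lived since emergence in dishes of 10 with food, and all groups share the same tissue, the upper midbrain with mostly the mushroom bodies and the central brain. The queen of each colony had been inseminated with sperm of 1 drone, so each colony is 1 family, and a colony effect cannot be told apart from a family effect. A bee is called by its type and its title number, and each number holds 1 bee of each type from the same colony.

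In honey bees a drone develops from an unfertilised egg and carries a single set of chromosomes, so all of its sperm carry the same alleles. Daughters of a queen and a single drone therefore share every paternal allele and differ only in which of the queen's alleles they received. At a locus where the queen is heterozygous, each daughter has an equal chance of either allele, and loci far apart or on different chromosomes are passed on independently. Honey bees are known for a high rate of recombination, so that only close loci stay together in a small family. A DNA difference near a gene that changes its transcription can divide such sisters into a higher and a lower class.

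Library totals over genes ran from 16167731 to 27548410 counts, so that 1 count corresponded to 0.0363 to 0.0619 CPM. The gene IDs were not matched to names (0 of 15314 matched), so genes are given by ID alone, with no statement of function or position, and the labelled tissue was not checked against marker genes. Reads shared with a near-identical copy of a gene could not be recognised, and a gene with 2 levels with such a copy is uncertain to that extent. Reads of deformed wing virus (DWV), which infects bees, came to 6673 to 28967 per 1000000 reads (RPM) in 16 bees, 13 of colony 5 and 3 of colony 6, and at 2.6 to 63.9 RPM in the other 20.

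The rule found 0.176% of 10225 eligible genes in colony 5 and 0.108% of 10194 in colony 6. Gaps ran from 1.52 to 7.69 log2 units with a median of 2.33, and exceeded 3 in 11 of the 29 cases (a gene in a colony). The standard deviation among upper bees ran from 0.07 to 0.59 log2 units, with a median of 0.21. The rule set no limit on the spread of lower bees, whose standard deviation ran from 0 to 0.94 log2 units. It was 0.94 for GB47990, 0.59 for GB40486 and 0.53 for GB40485 in colony 6, beside gaps of 1.52, 1.55 and 1.58. The lower bees of a gene therefore need not form 1 narrow level. In 6 of the 29 cases the lower bees together had 3 or fewer counts, and in 2 of these they had 0. In the other 23 cases the upper mean was 5.93 to 820 times the lower mean, with a median of 12.7.

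**Figure D1:**
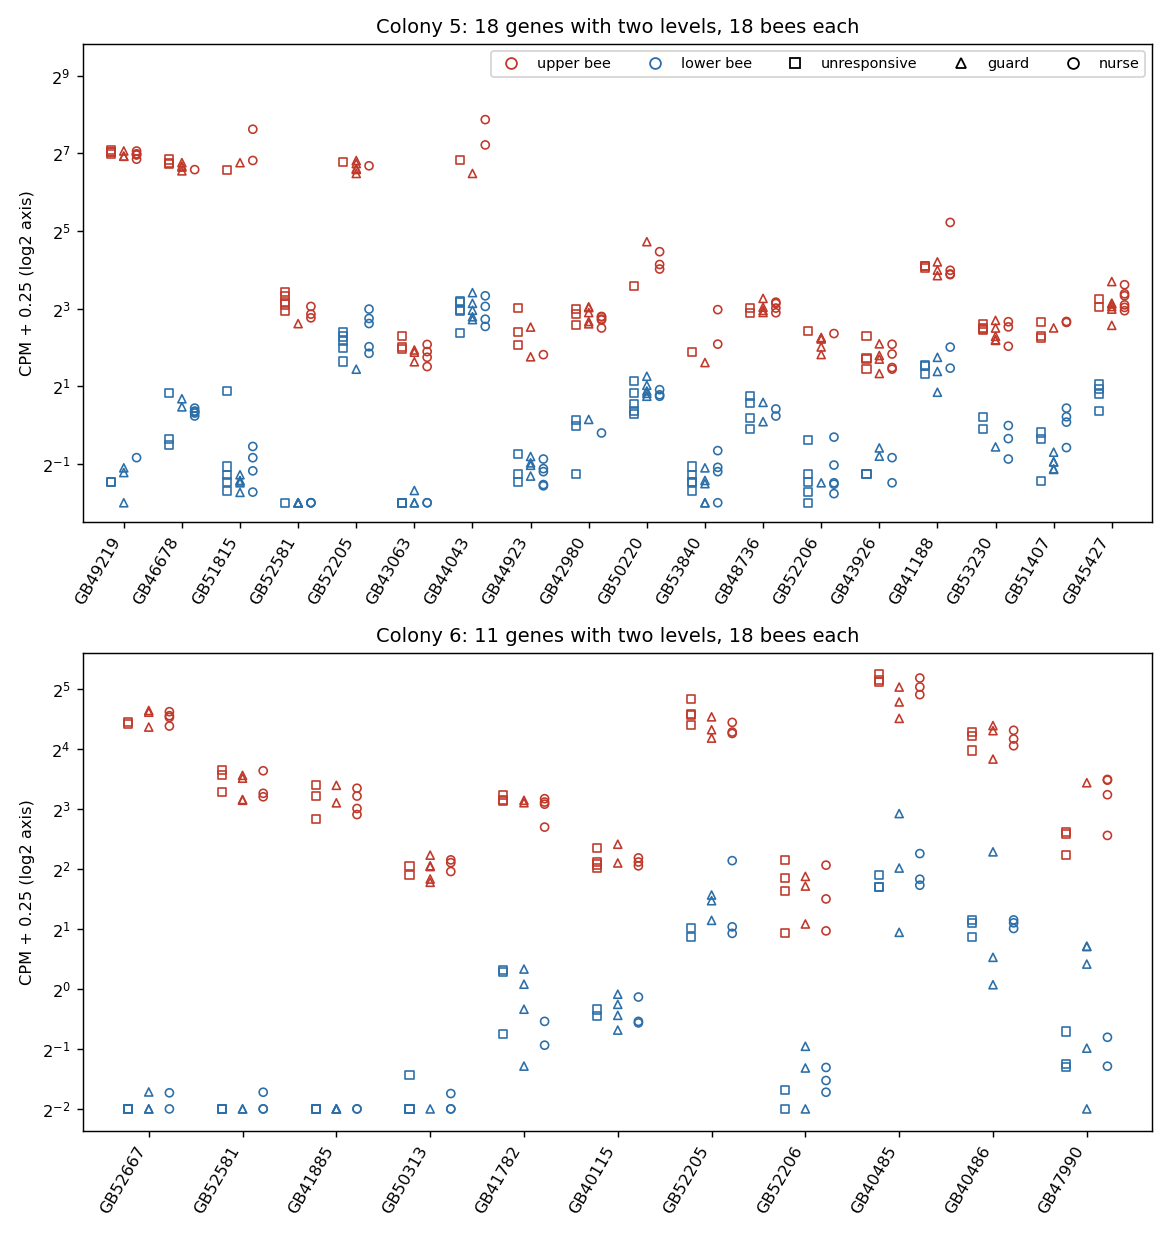
CPM + 0.25 on a log2 axis for each of the 18 bees of a colony, for the 18 genes divided in colony 5 (top) and the 11 divided in colony 6 (bottom), ordered from the widest gap at the left; colour gives the level and symbols the behavioural type. Gaps ran from 7.69 log2 units for GB49219 to 1.52 for GB45427 in colony 5 and GB47990 in colony 6. Each type has bees at the upper level of every gene because the rule required it.

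GB49219 had the widest gap. Its 12 upper bees in colony 5 had 115 to 136 CPM with a median of 126 CPM, and its 6 lower bees had 0 to 0.309 CPM with a median of 0.146 CPM. The upper level was narrow, at 127 ± 6.1 CPM (SD, n = 12). In colony 6 all 18 bees lay at 0 to 0.399 CPM, on the side of the lower bees. The gene was thus high in some bees of colony 5 and in no bee of colony 6. In RNA of a whole tissue, fewer cells with a transcript and less of it per cell cannot be told apart.

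GB46678 followed the same form with 8 upper bees. They had 93.2 to 114 CPM with a median of 103 CPM, and the 10 lower bees had 0.455 to 1.54 CPM with a median of 1.03 CPM. The upper mean was 102 times the lower mean, and the lower bees still had 191 counts in all. In colony 6 all 18 bees had 0.314 to 2.23 CPM.

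GB52667 was the most widely divided gene of colony 6, with a gap of 6.08. Its 9 upper bees had 20.3 to 24.6 CPM with a median of 22.7 CPM, and its 9 lower bees had 0 to 0.054 CPM, 2 counts in all. The 18 bees of colony 5 had 0 to 0.157 CPM. GB41885 was at 6.87 to 10.3 CPM in its 9 upper bees of colony 6 and had 0 counts in all 9 lower bees. Against a floor of 3 counts per library its upper mean was at least 56.8-fold higher. GB50313 was at 3.17 to 4.43 CPM in 10 upper bees of colony 6, while the 8 lower bees had 3 counts in all. GB43063 was at 2.59 to 4.64 CPM in 10 upper bees of colony 5, while the 8 lower bees had 1 count in all.

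Other genes were divided between levels that both lay above 0. GB48736 was at 7.11 to 9.34 CPM in its 10 upper bees of colony 5 and at 0.683 to 1.43 CPM in the 8 lower bees, a ratio of means of 7.64. GB41188 was at 14.2 to 37.0 CPM in 10 upper bees and 1.55 to 3.77 CPM in 8 lower bees of colony 5, a ratio of 6.9. Its highest upper bee stood apart from the upper median of 16.02 CPM. GB53230 was at 3.84 to 6.23 CPM in 12 upper bees of colony 5 and at 0.296 to 0.902 CPM in 6 lower bees. GB44923 and GB51407 each had 6 upper bees in colony 5, at 3.13 to 7.79 CPM for GB44923 and 4.51 to 6.11 CPM for GB51407. The 12 lower bees had 0.0882 to 0.351 CPM of GB44923 and 0.117 to 1.1 CPM of GB51407.

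In all, 3 genes were divided in both colonies. GB52581 was at 5.87 to 10.5 CPM in 9 upper bees of colony 5 and at 8.57 to 12.2 CPM in 10 upper bees of colony 6. The 9 lower bees of colony 5 had 0 counts, which puts the upper mean at least 50-fold higher against the floor of 3 counts per library, and the 8 lower bees of colony 6 had 1 count in all. The upper ranges of GB52581 overlapped between the families, and both families had nearly no reads below.

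GB52205 did not take the same upper level in the families. Its 7 upper bees of colony 5 had 88.9 to 112 CPM with a median of 102 CPM, and its 10 upper bees of colony 6 had 17.8 to 28.04 CPM with a median of 21.1 CPM. The 11 lower bees of colony 5 had 2.46 to 7.68 CPM, and the 8 lower bees of colony 6 had 1.57 to 4.14 CPM. The 10 upper bees of colony 6 all fell inside the gap of colony 5, so GB52205 had an intermediate level that no bee of colony 5 showed. GB52206 had upper levels that overlapped between the colonies. It was at 3.27 to 5.15 CPM in 7 upper bees of colony 5 and 1.66 to 4.17 CPM in 10 upper bees of colony 6, with lower bees at 0 to 0.557 CPM and 0 to 0.265 CPM.

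**Figure D2:**
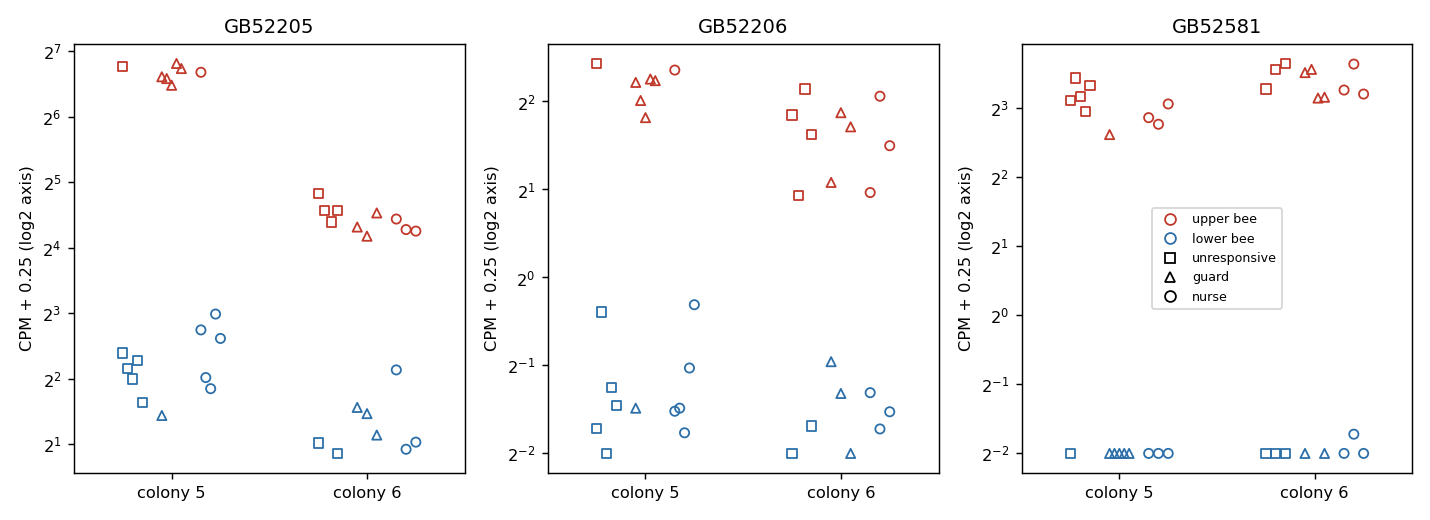
CPM + 0.25 on a log2 axis in all 36 bees for the 3 genes divided in both colonies; colour gives the level within the colony and symbols the behavioural type. Upper bees of GB52205 sit at 88.9 to 112 CPM in colony 5 and 17.8 to 28.04 CPM in colony 6, while upper bees of GB52581 overlap between the colonies.

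The 23 genes divided in a single colony were then placed by their values in the other colony. The rule was applied there too, so these are genes whose values in the other colony did not meet it. Leaving out fully separated genes had removed 3 genes that otherwise met the rule in colony 5 and 2 in colony 6. The numbers that follow are therefore partly set by the choice of genes. In 11 genes all 18 bees of the other colony lay on the lower side of the middle of the gap, in 3 genes all 18 lay on the upper side, and in 9 genes the other colony had bees on both sides. GB42980, GB43926 and GB40115 are the 3 on the upper side. GB42980 was at 5.41 to 8 CPM in 13 upper bees and 0.165 to 0.856 CPM in 5 lower bees of colony 5, and at 5.49 to 23.7 CPM in colony 6. GB43926 was at 2.26 to 4.67 CPM in 12 upper bees and 0.107 to 0.415 CPM in 6 lower bees of colony 5, and at 3.18 to 6.5 CPM in colony 6. GB40115 was at 3.77 to 5.06 CPM in 9 upper bees and 0.371 to 0.69 CPM in 9 lower bees of colony 6, and at 4.03 to 7.17 CPM in colony 5. For these 3 genes the low level was seen in 5, 6 and 9 of the 18 bees of one colony and in no bee of the other.

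GB41782 showed a middle level in the other colony. Its 9 upper bees of colony 6 had 6.22 to 9.1 CPM and its 9 lower bees had 0.16 to 1.01 CPM, while all 18 bees of colony 5 lay inside that gap, at 2.39 to 5.73 CPM with a median of 4.08 CPM. GB41188 and GB53230 were low in most bees of colony 6, where 2 of 18 and 1 of 18 lay above the middle of the gap. GB45427 varied without a gap of the required size in colony 6, at 1.36 to 39.7 CPM, with 15 of 18 bees above the middle of the gap.

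The numbers of upper bees were set beside 1 in 2 inheritance. For 18 daughters it gives 9 upper bees on average with a standard deviation of 2.12, and 5 to 13 upper bees in 96.9% of loci. Genes whose levels differed in at most 1 of the 18 bees were counted as 1 division, which left 14 divisions in colony 5 and 8 in colony 6. The division that joins GB50220, with 5 upper bees, to GB44043, GB51815 and GB53840 was counted with their 4. The 14 divisions of colony 5 had 4 to 14 upper bees with a mean of 9.5 ± 2.98 (SD), and the 8 of colony 6 had 8 to 10 with a mean of 9.25 ± 0.707. Over all 22 divisions, 207 of 396 calls were upper, or 52.3%. The exact (Clopper-Pearson) 95% interval of the upper share held 50% in 25 of the 29 cases, in 14 of 18 in colony 5 and in 11 of 11 in colony 6. Of the 22 divisions 20 held it, since 3 of the other 4 cases are 1 division. These counts are a description and no test of 1 in 2 inheritance. The rule itself used the number of upper bees, limited it to 3 to 15 and required all 3 types among them. Without the condition on types 21 genes met the rule in colony 6, beside 11 with it, and 19 beside 18 in colony 5. The intervals cover the sampling of 18 bees only.

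The 4 cases whose interval did not hold 50% were all in colony 5. GB44043, GB51815 and GB53840 had the same 4 upper bees, or 22.2% with an interval of 6.41 to 47.6%. GB45427 had 14 upper bees, or 77.8% with an interval of 52.4 to 93.6%, and its gap of 1.52 was the narrowest of the colony. All 4 of its lower bees were unresponsive bees: 2 of 6 unresponsive bees, 6 of 6 guards and 6 of 6 nurses were upper. It lay at 5.68 to 12.7 CPM in upper bees and 1.03 to 1.81 CPM in lower bees.

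**Figure D3:**
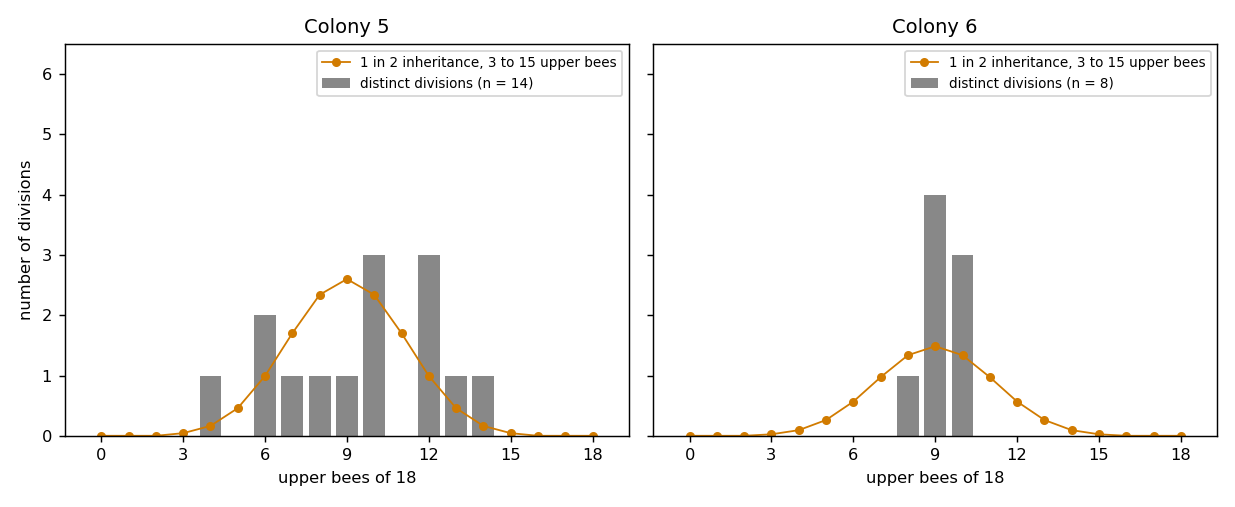
Number of distinct divisions (bars) by the number of upper bees out of 18 in colony 5 (14 divisions) and colony 6 (8 divisions); the line is the count that 1 in 2 inheritance gives for the same number of divisions when only 3 to 15 upper bees are kept. The line takes in neither the rule's condition that upper bees include all 3 types nor the joining of genes into divisions. Colony 6 divisions have 8 to 10 upper bees, and those of colony 5 spread from 4 to 14.

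Just inside the gap threshold of 1.5 lay GB45427 at 1.52, GB51407 at 1.81 and GB53230 at 1.83 in colony 5, and GB47990 at 1.52, GB40486 at 1.55 and GB40485 at 1.58 in colony 6. Just outside it lay GB49819 at 1.46, GB46338 at 1.4 and GB49691 at 1.35 in colony 5, and GB46302 at 1.47, GB47028 at 1.4 and GB45652 at 1.36 in colony 6.

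Co-segregation was described by counting, for each pair of genes in a colony, the bees placed at different levels. Independent 1 in 2 inheritance gives 9 differing bees of 18 on average. Between distinct divisions, the 91 pairs of colony 5 differed in 3 to 16 bees with a median of 9, and the 28 pairs of colony 6 in 5 to 13 with a median of 9. The spread of these pairs was 2.54 bees in colony 5 and 1.98 in colony 6 (SD), beside 2.12 for independent inheritance; pairs share bees and genes and are not independent. The closest pair of distinct divisions was GB41188 and GB42980, which differed in 3 bees. GB48736 and GB51407 were nearly opposite, with 16 of 18 bees at different levels.

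Of the 26 genes 10 fell into sets in which at most 1 bee differed. GB52205 and GB52206, with successive ID numbers, divided the same bees in both colonies, with 0 of 18 bees differing in colony 5 and 0 of 18 in colony 6. The upper bees in colony 5 were Unresponsive 40, 5 of the 6 guards and Nurse 36. GB40485 and GB40486, also with successive ID numbers, divided colony 6 alike. GB40485 was at 22.4 to 37.5 CPM in 9 upper bees and 1.67 to 7.32 CPM in 9 lower bees, and GB40486 at 13.9 to 20.6 CPM and 0.799 to 4.61 CPM in the same bees. In colony 5 both were low in all 18 bees. GB41782 and GB41885, whose ID numbers lie 103 apart, had the same 9 upper bees in colony 6.

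**Figure D4:**
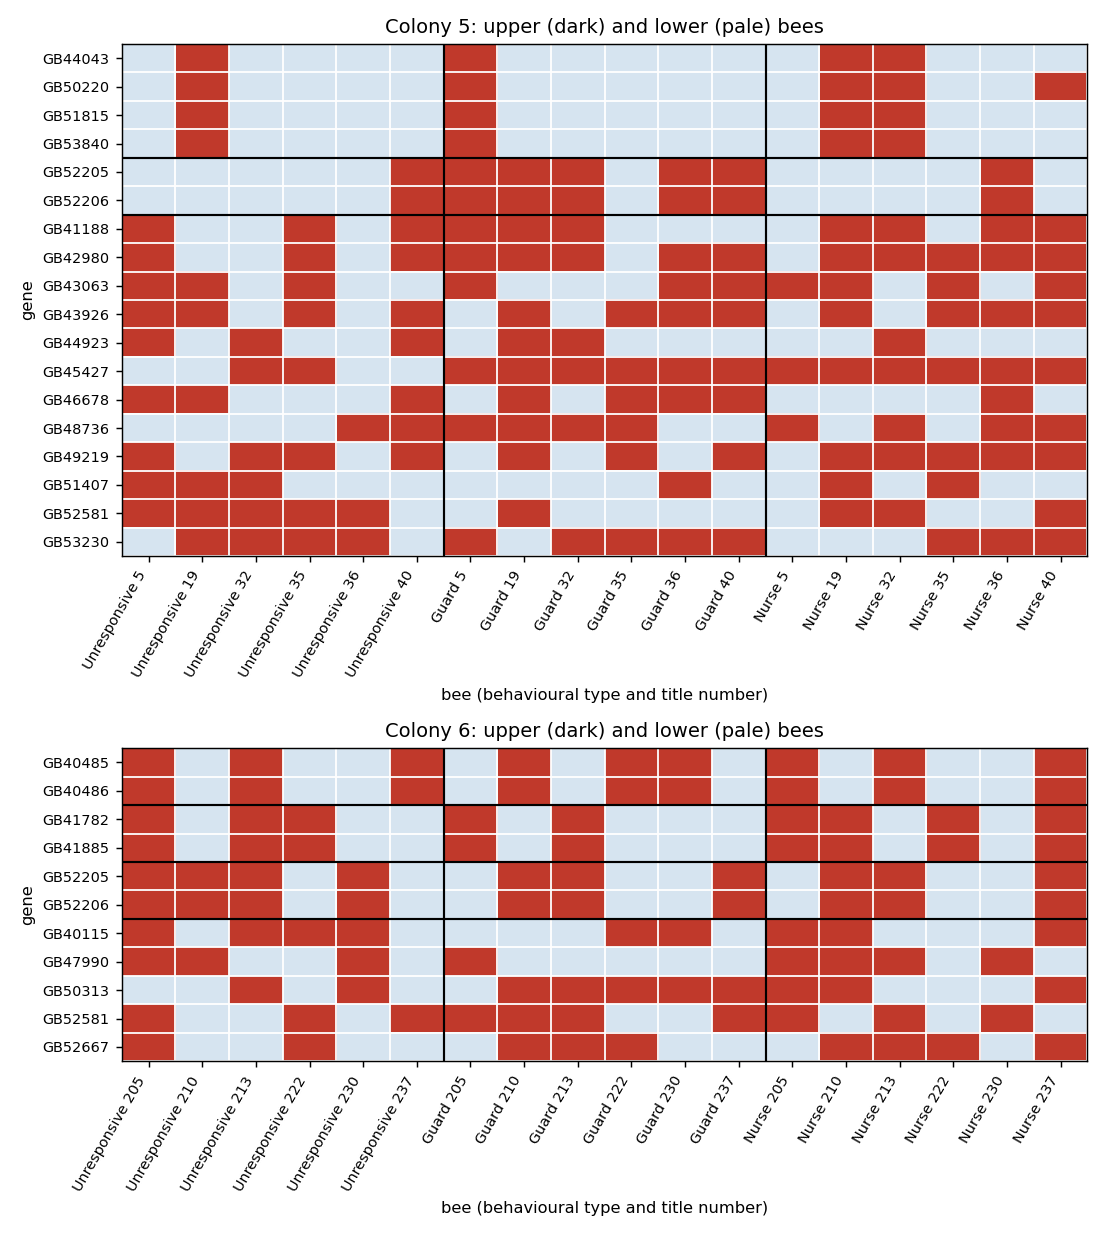
Level of each gene (rows) in each of the 18 bees (columns, grouped as unresponsive, guard and nurse) of colony 5 (top) and colony 6 (bottom); dark cells are upper bees, and horizontal lines close off sets that differ in at most 1 bee. GB44043, GB51815 and GB53840 are dark in the same 4 bees of colony 5, and GB52205 and GB52206 share their rows in both colonies.

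The fourth set held 4 genes. GB44043, GB51815 and GB53840 divided colony 5 identically, GB50220 added 1 bee, and the ID numbers spanned 9797. Positions were not known for any set, so ID numbers are given as labels and not as distances. The upper bees were Unresponsive 19, Guard 5, Nurse 19 and Nurse 32, with Nurse 40 added for GB50220. GB51815 was at 94.2 CPM in Unresponsive 19, 108 CPM in Guard 5, 112 CPM in Nurse 19 and 196 CPM in Nurse 32, and at 0.0508 to 1.58 CPM in the 14 lower bees. GB44043 was at 113 CPM in Unresponsive 19, 89.0 CPM in Guard 5, 148 CPM in Nurse 19 and 233 CPM in Nurse 32, and at 4.95 to 10.4 CPM in the lower bees. Nurse 32 was the highest of the 4 for both genes and also for GB53840, at 7.6 CPM.

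The genes of this set were also high together in bees of the colony where they did not meet the rule. In colony 6, Unresponsive 230 and Nurse 230 had 102 and 66 CPM of GB51815, and the highest of the other 16 bees had 0.903 CPM. The same pair had 119 and 82.7 CPM of GB44043, with at most 10.3 CPM in the rest, and 3.44 and 1.94 CPM of GB53840, with at most 0.684 CPM in the rest. GB50220 was less tied to them: Nurse 210, at 17.6 CPM, exceeded Nurse 230 at 16.1 CPM and Unresponsive 230 at 13.7 CPM. Guard 205 at 8.48 CPM and Nurse 205 at 7.21 CPM also lay above the middle of its gap, which made 5 of 18 bees. Nurse 19 and Unresponsive 19 share a title number, as do Nurse 230 and Unresponsive 230. For GB44043, GB51815 and GB53840, 2 of the 13 bees of colony 5 in the higher DWV range were upper, and 2 of the 5 in the lower range. For GB50220 these were 2 of 13 and 3 of 5. Both high bees of colony 6 were in its lower range, which held 15 bees. These counts were not tested.

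**Figure D5:**
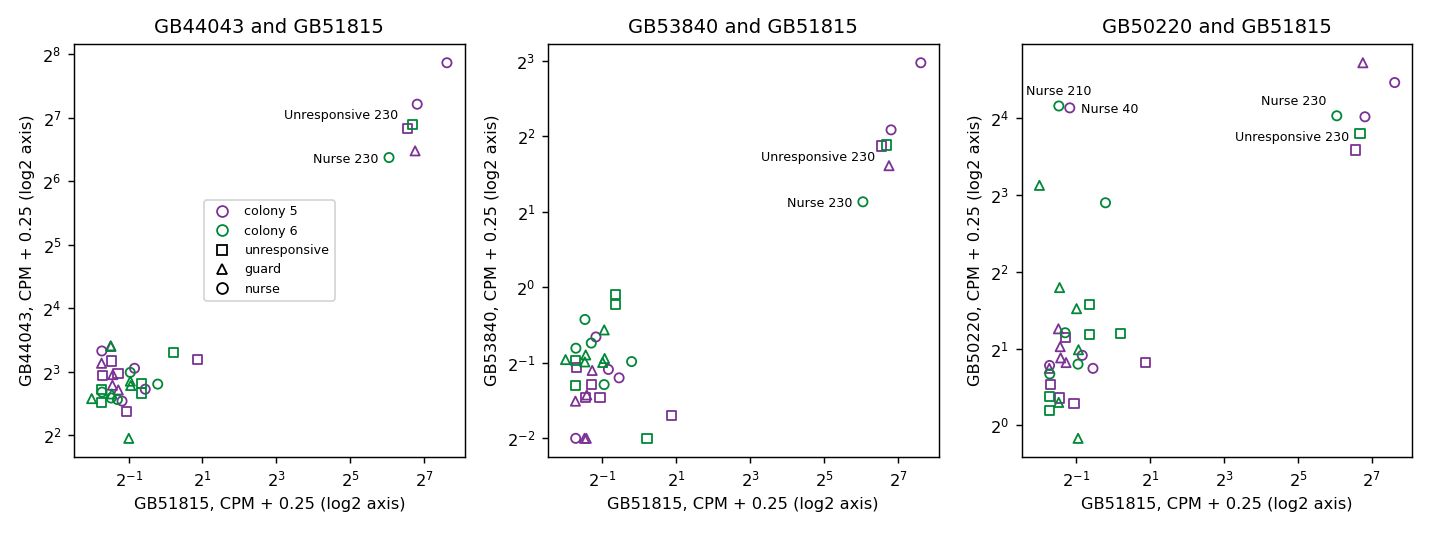
CPM + 0.25 on log2 axes for GB44043, GB53840 and GB50220 (vertical) against GB51815 (horizontal) in all 36 bees, coloured by colony with symbols for behavioural type. In the first and second plots 4 bees of colony 5 and 2 of colony 6 (labelled) lie apart at high values of both genes, and in the third Nurse 40 of colony 5 and Guard 205, Nurse 205 and Nurse 210 of colony 6 lie above the middle of the gap of GB50220 but are low for GB51815.

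Each division was next compared with the other genes of the same colony, each divided at its own largest gap. Genes with a colony mean of at least 1 CPM, a largest gap of at least 0.25 log2 units and 3 to 15 upper bees were compared, 336 in colony 5 and 471 in colony 6. At most 1 bee differed, in the same or the opposite order, for 14 genes with the 4-gene division of colony 5 (4.17%) and for 14 with the division of GB47990 in colony 6 (2.97%). The other 20 divisions had 0 to 2 such genes each, and 13 of them had 0. The share was 0.298% for GB43063, GB45427, GB52205 and GB52581 and 0.595% for GB42980 in colony 5, and 0.212% for GB40485 and 0.425% for GB50313 in colony 6. Among the 14 genes of the first division, chosen here after their values were seen, GB42549 had 35.6 CPM in Unresponsive 19, 30.2 CPM in Guard 5, 85.7 CPM in Nurse 19 and 150 CPM in Nurse 32, and at most 0.341 CPM in the other bees of colony 5. GB42549 missed the rule because its upper bees varied by more than 0.6 log2 units. GB42549 was also high in Unresponsive 230 and Nurse 230 of colony 6, at 62.7 and 70.5 CPM, with at most 0.586 CPM in the rest of that colony. GB51816, whose ID follows that of GB51815, also had the same 4 upper bees in colony 5, with a gap of 1.26. They had 6.21 to 15.8 CPM, and the rest at most 2.44 CPM. In colony 6 it was highest in Unresponsive 230 and Nurse 230, at 4.69 and 2.72 CPM, with at most 1.71 CPM in the rest.

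GB47990 had 8 upper bees in colony 6, at 4.45 to 11.0 CPM with a median of 7.52 CPM, and 10 lower bees at 0 to 1.39 CPM. The upper bees were 3 unresponsive bees, 1 guard and 4 nurses, and none had a DWV load in the higher range. Only 3 bees of colony 6 were in that range, Guard 213, Guard 230 and Guard 237, so load cannot be told apart from type there. All 14 genes that shared its division did so in the same order, 6 of them in every bee, with gaps of 0.44 to 1.06 log2 units. GB51652, chosen after its values were seen, had a gap of 1.05 and ran from 0.0535 to 14.3 CPM in colony 6. In colony 5, 4 bees lay above the middle of that gap for GB47990, at 6.27 CPM in Unresponsive 19, 5.31 CPM in Unresponsive 40, 8.51 CPM in Guard 5 and 20.1 CPM in Nurse 32, and the median was 0.301 CPM. Unresponsive 40 was a lower bee of the 4-gene set, and Nurse 19, an upper bee of that set, had 2.46 CPM of GB47990. Among the divisions with 1 or 2 such genes, and again chosen after their values were seen, GB50312, whose ID precedes that of GB50313, had the same upper bees as GB50313 in colony 6 with a gap of 0.80. GB51422 ran opposite to GB40485 and GB40486 in all 18 bees of colony 6, with a gap of 0.70.

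Behavioural type was related to the genes through models fitted to all genes. Of the 26 genes 18 passed the low-count filter, and the 8 that did not were GB41885, GB43063, GB44923, GB50313, GB51407, GB51815, GB52667 and GB53840. The rule had used type only by requiring upper bees of all 3. That condition left out genes whose upper bees lacked a type, so the numbers of calls by type are partly set by the choice of genes. Without the condition 37 genes met the rule, and the added genes were not counted here. Between guards and nurses 0 of 18 were called by the edgeR quasi-likelihood test at an adjusted p of 0.05, beside 0.0913% of all 10948 genes tested, and 1 had an unadjusted p under 0.05, beside 15.2% of all genes. Between unresponsive bees and nurses 0 of 18 were called, beside 0% of all genes, and 1 had an unadjusted p under 0.05, beside 5.4%. Between unresponsive bees and guards 0 of 18 were called, beside 0.0183%, and 0 had an unadjusted p under 0.05, beside 15.7%. DESeq2 called 0 of 18 between guards and nurses, beside 0.979% of all genes it gave an adjusted p, and 0 of 18 between unresponsive bees and nurses, beside 0.0731%. Between unresponsive bees and guards DESeq2 gave 11 of the 18 an adjusted p and called 0 of them, beside 1.2% of all genes; each of the 3 comparisons had 1 member with an unadjusted p under 0.05 by DESeq2.

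The members were widely spread within each type, and none of their fitted changes passed. The median size of the log2 change was 0.49 between guards and nurses, 0.29 between unresponsive bees and nurses and 0.33 between unresponsive bees and guards. Over all genes tested these medians were 0.07, 0.04 and 0.07. The members were chosen for a wide gap among these same bees, so larger fitted changes between groups of them follow from that choice. A positive log2 change means higher in guards than nurses, in unresponsive bees than nurses, or in unresponsive bees than guards. GB44043 had a log2 change of -1.64 ± 0.77 (SE) between guards and nurses, with 1 of 6 guards and 2 of 6 nurses upper in colony 5 (adjusted p = 0.303 by edgeR). GB41188 had one of -0.75 ± 0.44 (adjusted p = 0.404 by edgeR). Between unresponsive bees and nurses, GB50220 had a log2 change of -1.34 ± 0.65 (adjusted p = 0.922 by edgeR) and GB41188 one of -0.81 ± 0.44 (adjusted p = 0.97 by edgeR). Between unresponsive bees and guards, GB45427 had one of -0.82 ± 0.42 (adjusted p = 0.341 by edgeR) and GB44043 one of 1.16 ± 0.78 (adjusted p = 0.483 by edgeR).

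Counted over distinct divisions in colony 5, upper calls were 41 of 84 in unresponsive bees, 47 of 84 in guards and 45 of 84 in nurses. In colony 6 they were 24 of 48 in unresponsive bees, 23 of 48 in guards and 27 of 48 in nurses. Single bees were upper for 3 to 10 of the 14 divisions in colony 5 and for 2 to 7 of the 8 in colony 6. Single genes could lean to a type: GB52205 and GB52206 were upper in 1 of 6 unresponsive bees, 5 of 6 guards and 1 of 6 nurses of colony 5, and in 4, 3 and 3 of 6 in colony 6. GB52581 was upper in 5 of 6 unresponsive bees, 1 of 6 guards and 3 of 6 nurses of colony 5, and in 3, 4 and 3 of 6 in colony 6. Whether the type effect differed between colonies was tested over all genes: 0 of 18 were called by edgeR, beside 0.0274% of all genes, and 1, GB45427, had an unadjusted p under 0.05, beside 4.14%. The fit over both colonies gave GB52205 a log2 change of 1.17 ± 0.75 (SE) between guards and nurses (adjusted p = 0.451 by edgeR).

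DWV load and title number were not used by the rule. With type and colony in the model, 0 of 18 genes followed log10 DWV load, beside 0% of all genes, and 0 had an unadjusted p under 0.05, beside 4.38%. DESeq2 called 0 of 18 for load, beside 0.116% of all genes, and 0 had an unadjusted p under 0.05. The smallest p values were those of GB50220, with a log2 slope of -0.43 ± 0.29 (SE) for each log10 unit, and of GB44043, with -0.46 ± 0.34 (adjusted p = 0.999 for both by edgeR). In colony 5, GB52205 was upper in 7 of the 13 bees of the higher load range and in 0 of the 5 of the lower, and GB49219 in 7 of 13 and 5 of 5. These were among the most uneven of the 18 genes divided in colony 5, and GB48736 was upper in 7 of 13 and 3 of 5. The 5 bees of the lower range were Nurse 19, Nurse 32, Nurse 35, Nurse 40 and Guard 35, so load and type largely overlap in colony 5. Title number within colony gave 0 of 18 calls, beside 1.11% of all genes, and 3 had an unadjusted p under 0.05, beside 18.7%. These 3 were GB43926 (adjusted p = 0.108 by edgeR), GB44043 (adjusted p = 0.119) and GB47990 (adjusted p = 0.246), and DESeq2 called the same 3, beside 11.5% of all genes. Without the low-count filter edgeR called 1 of 26 genes for title number, GB51815, beside 0.638% of all genes. Without the bees numbered 213, edgeR called 0 of 19 members for title number. It then called 12 of all 10957 genes tested, against 122 of 10948 with them.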

How the data were processed

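Brain RNA of 36 single bees was sequenced from a stranded poly(A) mRNA kit for 101 cycles, per the labels' protocols. Per the submitters' processing notes the tools were HTSeq, SAMtools 0.1.19, Bowtie2 2.1.0, TopHat2 2.0.10 and CASAVA 1.8.2. The sources used here give neither their settings nor whether counting used strand. The deposited values are whole-number read counts for each gene ID, without normalization. The 5 summary rows that name no gene (31.9% of counted reads on average) were left out.

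CPM used library sums over genes. Genes, lists and tests were chosen with earlier results of these data known. Counts were fitted with edgeR 4.0.16 in R 4.3.3 (filterByExpr by type, TMM, robust quasi-likelihood), with DESeq2 1.42.0 as an alternative, and p-values were adjusted by Benjamini-Hochberg over all 10948 genes. Models held type and colony, with log10 DWV load or title number added. Standard errors are the log2 change over the square root of F. The model was tested on simulated counts. Genes named are members of sets of 3 or more, those divided in both colonies, the 6 with the widest gaps and the 3 with the highest means in each colony, the 2 with the smallest p in each test and the 3 on each side nearest the gap threshold; others were chosen after their values were seen. Python 3.11.15, SciPy 1.17.1 and matplotlib 3.10.9 served for intervals and figures. Each library is a separate bee. Intervals cover counting or sampling error only.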

Additional observations from a re-analysis of the deposited data

Results flagged for a closer look

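Each gene was examined in the groups of 6 bees (type and colony) of the colony in which it was not divided. A bee was singled out where its gap to the nearest other bee exceeded the 95% critical value for the group's range. Of 69 groups 22 had such a bee, and 7 of the 22 rest on 10 or fewer counts. The critical value allows about 1 in 20 groups only where values are normally distributed and groups are independent. Here it was applied to CPM, in part at very few counts, and co-segregating genes repeat the same bees. The 22 therefore cannot be set against a chance rate and are given as description.

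Bees numbered 230 account for 8 of them. In colony 6, Unresponsive 230 stood at 119 CPM for GB44043 (others 5.49 to 9.63), 102 CPM for GB51815 (0.0523 to 0.903), 3.44 CPM for GB53840 (0 to 0.684), 13.7 CPM for GB50220 (0.889 to 2.74) and 0.399 CPM, or 8 counts, for GB49219. Nurse 230 stood at 82.7 CPM for GB44043 (others 5.67 to 7.7), 66 CPM for GB51815 (0.0536 to 0.614) and 1.94 CPM for GB53840 (0.159 to 0.494).

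Guard 205 stood at 39.7 CPM for GB45427 (others 4.9 to 9.73), 6.47 CPM for GB41188 (2.21 to 3.04) and 8.48 CPM for GB50220 (0.639 to 3.22). Nurse 210 had 2.09 CPM of GB53230 (0.107 to 0.46) and 0.384 CPM of GB44923. Guard 210 had 0.426 CPM of GB53840, and Nurse 205 had 0.614 CPM of GB51407.

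In colony 5, GB47990 was at 8.51 CPM in Guard 5 (others 0.0535 to 0.305) and 20.1 CPM in Nurse 32 (0.0524 to 2.46). Guard 5 also had 7.11 CPM of GB40485 (3.57 to 4.73). The remaining cases were 0.114 CPM of GB41885 in Unresponsive 36, 0.0519 CPM of it in Guard 5, 0.0531 CPM of GB50313 in Unresponsive 40 and 0.161 CPM of it in Nurse 32, each 1 to 3 counts.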

How the results depend on the processing

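The number of genes was 26 and stayed within 1.5 times of that, at 18 to 37, in 9 of 11 alternatives; it was 16 with a pseudocount of 1 and 16 with a colony mean of at least 4 CPM. TMM scaling gave 25 genes, 24 of them shared, and without replicate 213, whose 3 files carry another tag, it was 26, all shared. The number of cases whose interval held 50% was 25 and came to 15 of 18 with a mean of at least 4 CPM. Genes in co-segregating sets numbered 10, and 7 to 12 over all alternatives, including 10 without the bees numbered 19 and 230, an alternative chosen after seeing the data. Calls by type and by DWV load stayed at 0 in all alternatives, within colony 5 and colony 6 alone included. For title number edgeR without the low-count filter called 1 (0.638% of all genes) and DESeq2 called 3 (11.5% of all genes), and the cause was not tested. Bees of one number had a median r of 0.126 across genes, against -0.022 for other numbers. With the own number r was over 0.1 in 21 of 36 pairs. It was highest with the own number in 13 of them, each time among the 6 bees of another type in the colony. Values were centred within each type and colony, which pulls r with other numbers below 0 where r with the own number is above 0. The medians are therefore not independent of each other. These values do not settle whether a number pairs bees, and the main models by type and by DWV load leave it out. With title number as a replicate block the calls by type and by DWV load were 0. A level of 0 means fewer reads than this depth can show.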
